A study of Mus musculus with 6 samples.

Results

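The Wrn and PARP-1 double mutant was compared with wild type on 2 of the 6 arrays of the series, chosen by their titles, and the values here are those of named genes on these 2 arrays. The cells were mouse embryonic fibroblasts, connective-tissue cells grown out of dissociated embryos, from 129/Sv-Black Swiss embryos of day 15.5, at passage 2 and 10 population doublings. The double mutant carries a Wrn allele with part of the helicase deleted in frame, together with a null allele of Parp1. The PARP-1 null and the Wrn helicase in-frame deletion mutant, with 2 arrays each, served to show where the double mutant differs, and wild-type cells of the same background were the partner on every array. Cells of 3 embryos from the same litter were pooled, and another litter served for a second pool per genotype, so each array stands for a pool and not for an embryo. All cultures were dividing asynchronously, cytoplasmic RNA was taken, and the labels do not name the sex of the embryos.

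PARP-1 is a nuclear enzyme that binds DNA breaks and builds chains of ADP-ribose from NAD on itself, histones and repair factors. WRN is a RecQ helicase and exonuclease that acts on stalled replication forks, telomeres and recombination intermediates, and its loss causes Werner syndrome, a disorder of early ageing, in humans. The proteins bind one another, and fibroblasts have long been the cell in which Werner cells are studied, for their slow growth and early senescence in culture.

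Each array gave 1 ratio per spot, and values below are log2 ratios, read as mutant over wild type, so that 1 is a 2-fold higher level in the mutant. This direction is likely and not certain: Parp1 was far below 0 only on the 4 arrays of cells lacking PARP-1, whereas the stated dyes with the maker's usual ratio would give the opposite sign, and a turned sign would mirror every direction. Wild-type RNA always carried the same dye, so a dye bias of a probe is part of its ratio to wild type but cancels between 2 mutants. A gene is said to have passed where its adjusted p was under 0.05 in limma (Benjamini-Hochberg over all features), and "rose" and "fell" are used of such genes only. Both words mean against wild type, and where single-mutant values are left out the single mutants may share the change. The p-values measure the spread between pools on arrays, and the spread of wild-type cells enters them only as far as separate wild-type pools were used. On the arrays of the double mutant, 20.3% and 19% of named spots were exactly 0, and whether a 0 is a measured ratio is not stated. In the strain label of the second double-mutant array the mutant channel reads wild type, against its title and source label. Each genotype has n = 2 throughout, which limits the precision. Only ratios were used, so fewer cells of a type and less RNA per cell cannot be told apart.

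Parp1, the gene disrupted in the line, was -2.97 and -2.59 on the 2 double-mutant arrays, -2.61 and -2.30 in the PARP-1 null and -0.12 and -0.31 in the Wrn mutant. Both double-mutant pools thus lay below 0 by more than their difference, the one with the wild-type strain label included, and the mean corresponds to 0.145 of the wild-type level (adjusted p = 0.0104). Wrn was 0.25 and 0.71 in the double mutant, 0.045 and -0.29 in the PARP-1 null and 0.84 and 0.58 in the Wrn mutant, and did not pass in the double mutant (adjusted p = 0.137). Where the Wrn probe lies relative to the deletion is not given, so it checks no label. In the double mutant 18.5% of the 16504 named genes passed, 10.1% higher and 8.38% lower, and these shares are the background for the counts below. Among the 12911 genes other than 0 on both arrays the share was 23.6%, 12.9% higher and 10.7% lower. At least a 2-fold difference the same way on both arrays was seen in 10.7% of genes, 4.71% higher and 6.03% lower. All 3052 genes that passed had the same sign on both arrays, but a gene with opposite signs could not have passed this test. Over all named genes the 2 arrays correlated at r = 0.73, a description across genes that share both arrays' probes and dyes. The calls lean on both arrays: 32 genes passed without the first and 185 without the second array, the one with the wild-type strain label. Of 288 named genes that passed, 4 and 22 still did, and no list of genes described below kept more than 2 members in either fit.

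**Figure D1:**
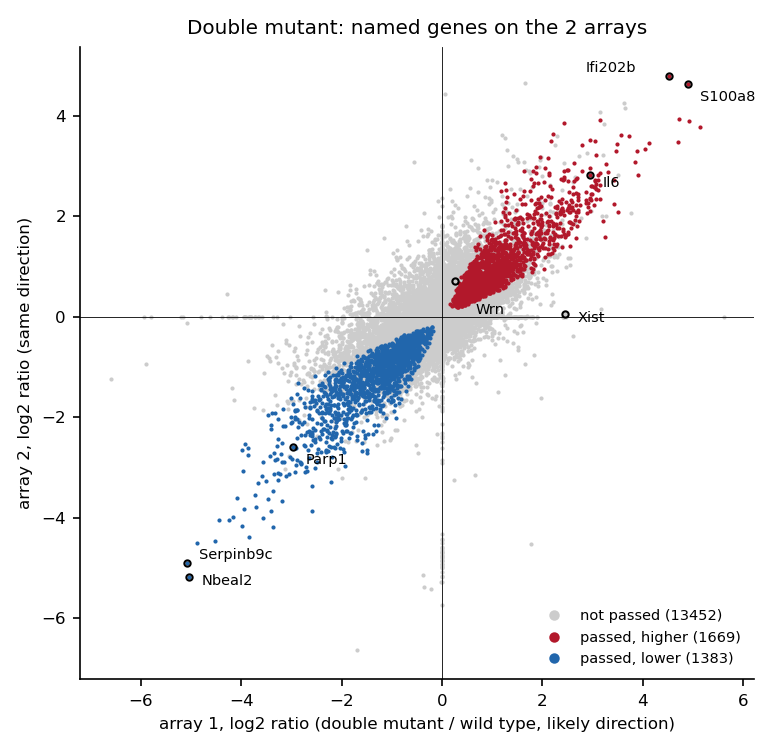
Log2 ratio of each of the 16504 named genes on the second double-mutant array (y axis) against the first (x axis), with genes that passed and were higher in red, lower in blue and the others in grey. Points near an axis were at or close to 0 on one array; Xist was 2.46 on the first and 0.057 on the second array.

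Parp2, the closest relative of PARP-1 and also activated by DNA breaks, fell to -1.40 and -0.74 in the double mutant, with -0.59 and -0.60 in the PARP-1 null and -0.70 and -0.66 in the Wrn mutant (adjusted p = 0.0360). Of 16 measured members of the PARP family, Parp1 and Parp2 fell, 14 did not pass and none rose. On both double-mutant arrays, 9 of the 16 lay below both PARP-1 null arrays, where 13.2% of all genes did, and 0 lay above, where 19.2% did. Among RecQ helicases and their partners 3 of 14 rose and none fell, with a median of 0.47, against 0 for all named genes. Blm, the helicase lost in human Bloom syndrome, was 0.72 and 0.45 in the double mutant, 0.18 and -0.022 in the PARP-1 null and -0.093 and 0.003 in the Wrn mutant (adjusted p = 0.0359). Recql, another RecQ helicase, rose to 0.60 and 0.41 (adjusted p = 0.0348), and Top1, the type I topoisomerase, to 0.51 and 0.59 (adjusted p = 0.0234). For all 3 genes both double-mutant arrays lay above both arrays of either single mutant, as they did for 60.5% of all genes that rose.

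S100a8, one subunit of calprotectin, a protein of neutrophils and monocytes, was 4.89 and 4.64 in the double mutant, 1.36 and 2.00 in the PARP-1 null and -0.76 and -1.58 in the Wrn mutant. The 3 genotypes did not overlap, and the mean is a 27.2-fold higher level than in wild type (adjusted p = 0.0105). Ppbp, a platelet chemokine gene, had the same order at 4.72 and 3.94, 1.36 and 1.59, and -0.64 and -1.69. Slco4a1, an organic anion transporter gene, was 3.49 and 3.44 in the double mutant, 1.70 and 2.34 in the PARP-1 null and 1.32 and 0.52 in the Wrn mutant. Mgll, which encodes the lipase that splits monoacylglycerols, was 3.47 and 3.31 in the double mutant, 2.59 and 2.66 in the PARP-1 null and 1.05 and 0.49 in the Wrn mutant. Both showed double-mutant pools close together and above all 4 other arrays. Mgarp, a mitochondrial protein gene, did so as well, at 3.73 and 3.60 in the double mutant, 2.70 and 2.00 in the PARP-1 null and 1.02 and 1.40 in the Wrn mutant. Pdgfrl, related to the PDGF receptor, lay high on every array of the series, at 3.57 and 3.62 in the double mutant, 2.91 and 3.20 in the PARP-1 null and 2.90 and 3.48 in the Wrn mutant. A shared value of this kind holds the wild-type partner and the probe's dye bias, which cannot be told apart here.

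Among genes that fell, Ccr10, a chemokine receptor gene, was -4.53 and -4.47 in the double mutant, -3.59 and -2.61 in the PARP-1 null and -2.90 and -1.55 in the Wrn mutant. Dpt, which encodes the matrix protein dermatopontin, was -4.24 and -4.06, -2.67 and -2.35, and -3.28 and -0.44 in the same order. Lim2, a lens membrane protein gene, was -3.72 and -3.55 in the double mutant, -2.93 and -3.09 in the PARP-1 null and -2.12 and -2.66 in the Wrn mutant. For these 3 genes the double mutant was the lowest genotype and its arrays did not overlap the others. Hes5, a Notch effector gene, was -3.83 and -4.39 in the double mutant, -4.07 and -3.33 in the PARP-1 null and -3.13 and -4.77 in the Wrn mutant, with overlap among all 3. Ctsc, the gene of the lysosomal protease cathepsin C, was -4.08 and -3.60 in the double mutant, -4.19 and -4.55 in the PARP-1 null and 0.98 and 1.08 in the Wrn mutant. Fcrls, an Fc receptor-like gene, had the same pattern at -3.71 and -3.80, -3.44 and -3.76, and 1.69 and 0.81, so both lay low only on the 4 arrays without PARP-1. The 30 genes ranked highest by the smaller of their 2 array values, 15 each way, had adjusted p-values between 0.0104 and 0.0429.

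**Figure D2:**
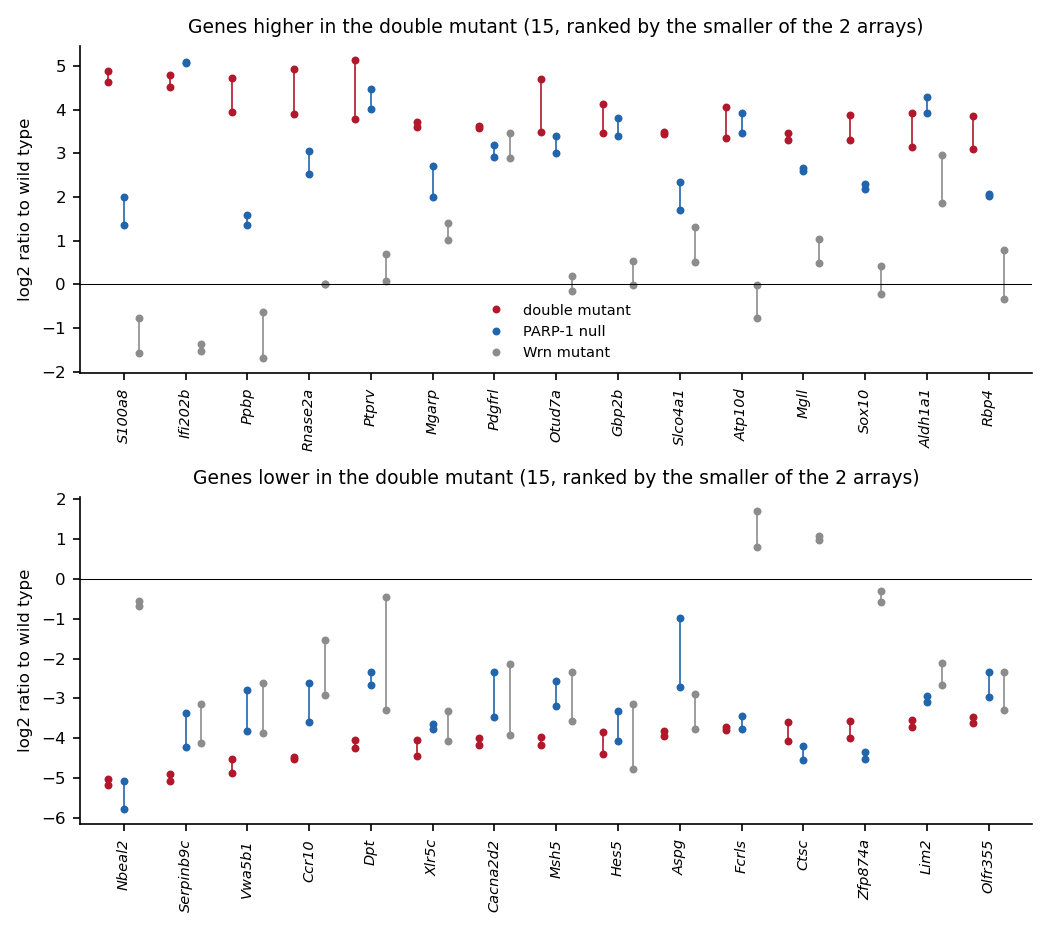
Log2 ratio to wild type (y axis) of the 15 genes higher and 15 genes lower in the double mutant with the largest smaller array value; each point is an array and a line joins the 2 arrays of a genotype, double mutant in red, PARP-1 null in blue and Wrn mutant in grey. S100a8 and Ppbp lie apart in all 3 genotypes, whereas Nbeal2, Ctsc and Zfp874a are low in the double mutant and the PARP-1 null only.

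Genes of mitosis were the list with the largest share of members that passed, among 59 lists. Of 59 measured members 22 rose, 4 fell and 33 did not pass, so 44.1% passed. The list's median was 0.62, with 0.65 on the first and 0.48 on the second array. With scale normalization between arrays 8 members passed higher and 0 lower, among 1013 named genes that passed. With spots at 0 or at the limit left out 27 passed higher and 5 lower, among 4772. By their mean 76.3% of the members lay above 0, against 43.6% of all named genes. Ect2, the exchange factor that sets up the cleavage furrow, was 1.22 and 1.09 in the double mutant, 0.38 and 0.40 in the PARP-1 null and 0.093 and 0.016 in the Wrn mutant (adjusted p = 0.0104). Cenpa, the histone H3 variant that marks centromeres, was 1.35 and 1.34 in the double mutant, 0.15 and 0.43 in the PARP-1 null and 0.043 and 0.21 in the Wrn mutant (adjusted p = 0.0109). Ccnb2, a B-type cyclin gene, was 1.24 and 1.01 in the double mutant, 0.35 and 0.49 in the PARP-1 null and -0.13 and -0.19 in the Wrn mutant (adjusted p = 0.0111). In each of the 3 the double-mutant arrays lay above both arrays of either single mutant. The other members that rose, named here after their values were seen, were the cyclin gene Ccna2 (1.52), the kinase genes Ttk, Aurka and Bub1, the anaphase-promoting complex genes Cdc20 and Ube2c, the securin gene Pttg1, the phosphatase gene Cdc25c, the kinesin genes Kif18a and Kif20a, the midzone and cytokinesis genes Prc1, Racgap1 and Cdca8, the condensin genes Smc4 (0.38), Ncapd2 and Ncapg, and Nusap1, Cenpf and Mki67. Their means lay between 0.38 and 1.52. Foxm1, the transcription factor that drives many of these genes, did not rise with them: it fell to -2.27 and -1.82 in the double mutant, with -2.12 and -1.13 in the PARP-1 null and -1.33 and -1.95 in the Wrn mutant (adjusted p = 0.0355). The condensin gene Ncaph, at -1.54 and -1.16, the spindle gene Ckap2, at -1.24 and -0.74, and the kinetochore gene Ndc80, at -1.07 and -0.58, fell as well. Without the second array 1 mitosis gene was higher and 1 lower, and without the first 0 passed either way.

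Set against the single mutants, 40 of the 59 mitosis genes (67.8%) had both double-mutant arrays above both PARP-1 null arrays, where 19.2% of all genes did, and 3 had both below, where 13.2% did. Against the Wrn mutant the numbers were 46 above (78.0%, with 24% of all genes) and 0 below, where 17.6% of all genes lay below. In all comparisons of this kind the shares over all genes include genes at exactly 0. Of all named genes 21.8% were 0 on 1 or both double-mutant arrays, and 1 of the 59 mitosis genes was 0 on both. Shares without such genes were not computed. Of the 22 that rose, 21 lay above all 4 single-mutant arrays, the exception being Nusap1; of all genes that rose, chosen likewise for being high in the double mutant, 60.5% did. The largest gap between the lowest double-mutant and the highest PARP-1 null value was 1.09. No gene passed the test of the double mutant against either single mutant, as given below, so these are orders of arrays and not tested differences.

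**Figure D3:**
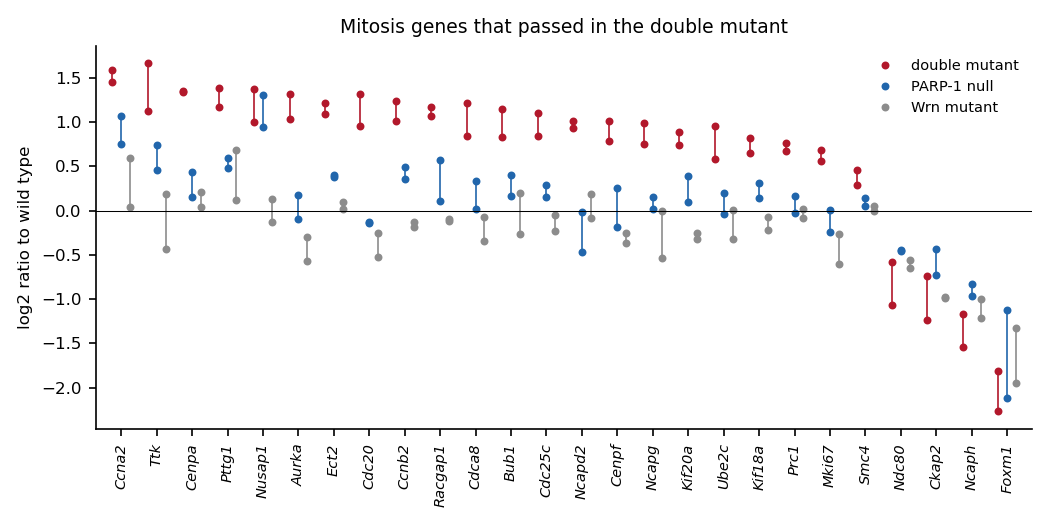
Log2 ratio to wild type (y axis) of the 26 mitosis genes that passed in the double mutant; each point is an array and a line joins the 2 arrays of a genotype. The red double-mutant points of 21 of the 22 genes that rose stand above the PARP-1 null and Wrn mutant points, and those of Foxm1, Ncaph, Ckap2 and Ndc80 lie below 0.

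Many mitosis genes hold a cell-cycle element known as the CHR and inverted CCAAT boxes near their start, bound by the DREAM and NF-Y complexes. The promoters of the 3 members with the lowest p that hold a CHR are shown for that reason, from RefSeq on GRCm38.p6, 250 bases before to 50 after the start, with TTTGAA (the CHR core) and CCAAT in capitals on either strand (the reverse of CCAAT reads ATTGG). Ect2 lies at chr3:27153829-27154128 (- strand), Cenpa at chr5:30666636-30666935 (+ strand) and Ccnb2 at chr9:70421505-70421804 (- strand).
Ect2: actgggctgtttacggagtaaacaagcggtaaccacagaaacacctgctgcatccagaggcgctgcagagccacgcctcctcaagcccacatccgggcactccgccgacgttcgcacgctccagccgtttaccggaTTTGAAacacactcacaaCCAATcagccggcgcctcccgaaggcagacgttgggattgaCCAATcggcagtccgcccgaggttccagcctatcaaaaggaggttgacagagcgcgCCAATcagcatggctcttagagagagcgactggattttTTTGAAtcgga
Cenpa: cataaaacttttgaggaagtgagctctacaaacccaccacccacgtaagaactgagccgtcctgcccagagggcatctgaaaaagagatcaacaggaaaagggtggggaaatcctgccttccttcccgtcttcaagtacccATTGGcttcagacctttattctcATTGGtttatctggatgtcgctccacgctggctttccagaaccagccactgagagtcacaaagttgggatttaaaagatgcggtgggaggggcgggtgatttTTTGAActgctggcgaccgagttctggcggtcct
Ccnb2: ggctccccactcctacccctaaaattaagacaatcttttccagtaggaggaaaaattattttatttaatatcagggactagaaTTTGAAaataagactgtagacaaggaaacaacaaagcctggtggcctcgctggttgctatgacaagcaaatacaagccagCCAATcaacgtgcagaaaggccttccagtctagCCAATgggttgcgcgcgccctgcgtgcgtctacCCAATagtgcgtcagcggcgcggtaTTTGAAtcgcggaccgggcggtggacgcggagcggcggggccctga
These windows held 2, 1 and 2 copies of TTTGAA, with 1 close to the start in each, and 3, 2 and 3 copies of CCAAT. On either strand TTTGAA was present for 35 of the 49 mitosis genes with a window (71.4%), against 16.6% of all 13223 measured genes with one, and for 14 of the 18 that rose (77.8%). CCAAT was present for 36 of 49 (73.5%), against 42.3% of all. A gene with several windows was counted once if any held the motif, the 2 motifs do not overlap in sequence, and a match in letters is a description only.

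DNA replication genes had a median of 0.47 over 54 members, with 0.55 on the first and 0.31 on the second array, but 7 rose, 5 fell and 42 did not pass, close to the background. Rrm1, the large subunit of ribonucleotide reductase, was 1.12 and 1.30 in the double mutant, 0.46 and 0.84 in the PARP-1 null and 0.048 and -0.002 in the Wrn mutant (adjusted p = 0.0173). Rfc3, a clamp loader subunit, fell to -1.64 and -1.24, Ccne2, an E-type cyclin, to -1.49 and -1.27, and the origin recognition gene Orc5 to -1.83 and -1.19. Rfc3, Ccne2 and Orc5 lay below 0 on all 6 arrays, those of the single mutants included. Both double-mutant arrays lay above the PARP-1 null in 31 of the 54 members (57.4%), where 19.2% of all genes did. They lay below it in 3, where 13.2% of all genes did. Against the Wrn mutant 40 lay above (74.1%, with 24% of all genes) and 2 below (3.7%, with 17.6% of all genes). Among cyclin D, E2F and CDK inhibitor genes 4 of 25 rose and 5 fell. Rb1, the retinoblastoma gene that restrains entry into S phase, was 1.37 and 1.28 in the double mutant, 0.84 and 0.88 in the PARP-1 null and 0.70 and 0.59 in the Wrn mutant (adjusted p = 0.0104). Cdkn2a, which encodes p16 and p19ARF, markers of senescence in cultured fibroblasts, was -2.40 and -2.01 in the double mutant, -1.95 and -1.04 in the PARP-1 null and -1.84 and -1.78 in the Wrn mutant (adjusted p = 0.0229). It was below 0 on all 6 arrays, as was Ccnd1, the D-type cyclin, at -1.69 and -1.25, -1.44 and -1.01, and -1.19 and -1.06 in the same order of genotypes (adjusted p = 0.0220). Cdkn2d, another inhibitor of CDK4, rose to 0.90 and 0.92.

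Of 26 histone genes 6 rose and 5 fell, so 42.3% passed in no common direction. H2bc18, an H2B gene, was 3.07 and 2.65 in the double mutant, 6.62 and 5.91 in the PARP-1 null and 0 and -0.14 in the Wrn mutant, with the double mutant between the single mutants and apart from both. H2ax, the variant phosphorylated at DNA breaks, was 1.43 and 1.36 in the double mutant, 0.68 and 0.86 in the PARP-1 null and 0.023 and 0.34 in the Wrn mutant (adjusted p = 0.0116). The linker histone H1f3 rose to 1.16 and 1.10, while its relatives H1f1 (-2.32 and -2.64), H1f5 (-1.83 and -1.48) and H1f10 (-1.34 and -1.63) fell. Histone genes are near-identical in sequence, so their probes may share signal.

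In double-strand break repair and the Fanconi pathway 6 of 32 genes rose and 3 fell. Atm, the kinase that signals such breaks, fell to -0.64 and -0.61 in the double mutant, beside -0.84 and -0.78 in the PARP-1 null and -0.092 and -0.12 in the Wrn mutant (adjusted p = 0.0104). Xrcc5, which encodes Ku80 of end joining, fell to -0.66 and -0.62, with -0.26 and -0.33 in the PARP-1 null and -0.44 and -0.39 in the Wrn mutant (adjusted p = 0.0105). Rnf8, a ubiquitin ligase recruited to breaks, fell to -2.12 and -1.53 (adjusted p = 0.0248). In base excision and single-strand break repair, the pathway in which PARP-1 itself acts, 1 of 16 genes passed: Aptx, the aprataxin gene, rose to 0.89 and 0.53. Ung was 1.41 and 0.47 and Polb -1.20 and -0.37, and neither passed. Of 18 mismatch and nucleotide excision repair genes 2 rose and 2 fell, among them Ercc1, which was above 0 at 1.02 and 1.26 in the double mutant as well as 0.77 and 1.11 in the PARP-1 null but below it at -0.67 and -0.58 in the Wrn mutant. Msh3, the mismatch recognition gene, fell to -0.75 and -1.03, with -0.64 and -1.18 in the PARP-1 null and -1.11 and -1.08 in the Wrn mutant. Msh5, a meiotic relative, fell to -3.98 and -4.17, with -3.185 and -2.56 in the PARP-1 null and -2.33 and -3.58 in the Wrn mutant. Both genes thus lay below 0 on all 6 arrays. Of 11 telomere genes 2 rose, Nop10 (0.90 and 1.53) and Pot1a (0.93 and 0.48), and Gar1 fell (-0.99 and -0.94). Each kept its sign on all 6 arrays.

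Among 29 targets of p53, 5 fell, 2 rose and 22 did not pass. Bbc3, which encodes the cell-death protein PUMA, was -1.81 and -1.85 in the double mutant, -1.44 and -1.04 in the PARP-1 null and -0.54 and -0.92 in the Wrn mutant (adjusted p = 0.0134). Pmaip1, which encodes NOXA, was -1.01 and -1.19 in the double mutant, -1.25 and -1.31 in the PARP-1 null and -0.12 and -0.23 in the Wrn mutant (adjusted p = 0.0105). The first was lowest in the double mutant and the second in the PARP-1 null, without overlap in either. On the other side, the death receptor gene Fas rose to 1.12 and 1.27 (adjusted p = 0.0172), and the phosphatase gene Ptprv to 5.13 and 3.79. Of 28 Bcl2 family and caspase genes 2 rose and 3 fell. Casp9, the initiator caspase of the mitochondrial pathway, was low on all 6 arrays, at -2.12 and -2.39 in the double mutant, -2.24 and -2.17 in the PARP-1 null and -1.57 and -2.12 in the Wrn mutant. Bok rose to 1.49 and 1.86, with 0.46 and 1.04 in the PARP-1 null and -0.11 and -0.47 in the Wrn mutant.

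Immediate-early genes, transcribed within minutes of a growth or stress signal, had 8 members that rose, 1 that fell and 22 that did not pass among 31, with a median of 0.40. Nr4a1, an orphan nuclear receptor gene, was 1.98 and 2.21 in the double mutant, 1.77 and 1.68 in the PARP-1 null and -0.37 and -0.083 in the Wrn mutant (adjusted p = 0.0104). Jun, the AP-1 subunit, was 0.61 and 0.71 in the double mutant, 0.36 and 0.19 in the PARP-1 null and -0.28 and -0.24 in the Wrn mutant (adjusted p = 0.0154). Klf2 rose to 1.94 and 1.85 and Ier2 to 0.98 and 1.33, whereas Nr4a2, a close relative of Nr4a1, fell to -0.70 and -0.46 (adjusted p = 0.0400). All 8 that rose lay above both Wrn mutant arrays and 4 of them above both PARP-1 null arrays, where 83.3% and 68.5% of all genes that rose did. The second array ran higher, with a list median of 0.71 against 0.19 on the first. Egr2, a zinc finger gene also active in Schwann cells, was 2.38 and 2.13 in the double mutant, 2.09 and 1.33 in the PARP-1 null and 0.60 and 0.36 in the Wrn mutant. Its promoter is shown because it was the only one among the 6 rising members with a window that held a CArG box, the serum response element core, in capitals below (GRCm38.p6, RefSeq, chr10:67537316-67537615, + strand).
Egr2: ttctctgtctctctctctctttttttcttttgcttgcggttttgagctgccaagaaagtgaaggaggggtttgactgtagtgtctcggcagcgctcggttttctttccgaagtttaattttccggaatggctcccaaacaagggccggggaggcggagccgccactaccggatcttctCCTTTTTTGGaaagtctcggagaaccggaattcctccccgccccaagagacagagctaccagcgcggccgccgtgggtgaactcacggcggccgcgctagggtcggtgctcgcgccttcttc
A CArG box was found for 4 of 25 immediate-early genes with a window (16%) and for 1.63% of all genes. The cyclic AMP element TGACGTCA was found for 3 of the 25 (12%) and 2.9% of all.

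Inflammatory genes moved both ways. Of 44 genes of NF-kB signalling and cytokines 6 rose and 4 fell, near the background. Il6, the acute-phase cytokine gene that senescent fibroblasts secrete, was 2.95 and 2.83 in the double mutant, 2.88 and 2.65 in the PARP-1 null and 0.81 and 1.22 in the Wrn mutant (adjusted p = 0.0104). Csf3, which encodes granulocyte colony-stimulating factor, was 1.85 and 2.24 in the double mutant, 1.26 and 1.33 in the PARP-1 null and 1.27 and 1.31 in the Wrn mutant. It was 1 of 9 genes whose call survived the loss of any single array (adjusted p from 0.0316 to 0.0455 for Csf3 in these fits), the others being Ifi202b, Defb1, Defb6, Gm10413, Myct1, Dennd6b, Zfp516 and 4933428G20Rik. The 4 members of the NF-kB and cytokine list that fell were Tnfaip3, the A20 brake on NF-kB, Myd88, Relb and Tlr4. Tnfaip3 fell to -1.03 and -0.85, Myd88 to -0.45 and -0.77, Relb to -0.45 and -0.63, and Tlr4 to -0.24 and -0.23. Of the 44, 34 did not pass. In chemokines and their receptors 8 of 55 genes rose and 3 fell, with Cxcl2, which draws neutrophils, at 2.26 and 2.18 in the double mutant, 1.33 and 1.17 in the PARP-1 null and 1.04 and 2.06 in the Wrn mutant.

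Interferon-response genes had a median of -0.37 over 65 members, of which 9 fell, 3 rose and 53 did not pass, so that the share that passed equalled the background. Tap1, which carries peptides into the endoplasmic reticulum for MHC class I, was -1.64 and -1.32 in the double mutant, -0.77 and -0.87 in the PARP-1 null and -0.52 and -0.23 in the Wrn mutant (adjusted p = 0.0138). Ifi205, of the Ifi200 cluster of DNA-sensing proteins, was -3.35 and -2.70 in the double mutant, -1.54 and -1.67 in the PARP-1 null and 0.15 and 1.00 in the Wrn mutant (adjusted p = 0.0170). Its neighbour Ifi202b went the other way, at 4.53 and 4.80 in the double mutant, beside 5.10 and 5.08 in the PARP-1 null and -1.53 and -1.37 in the Wrn mutant. Gbp2b, a guanylate-binding protein gene, was 4.13 and 3.46 in the double mutant, 3.80 and 3.39 in the PARP-1 null and 0.54 and -0.011 in the Wrn mutant. Gbp2 and Gbp2b are close paralogues, as are Ifi202b and Ifi205, and their probes may share signal. Both double-mutant arrays lay below both PARP-1 null arrays in 28 of the 65 (43.1%, against 13.2% of all genes) and below both Wrn mutant arrays in 38 (58.5%, against 17.6%). In the MHC and antigen processing list 7 of 31 genes fell and 4 rose. The class I genes H2-D1 (-2.16 and -2.02) and H2-Q1 (-2.08 and -1.95) fell, while the class II genes H2-Ab1 (1.16 and 0.80) and H2-DMb1 (1.48 and 1.04) rose and H2-DMa (-0.81 and -0.76) fell. All 7 that fell lay below all 4 single-mutant arrays, as did 42.1% of all genes that fell. H2-D1 and H2-Q1 belong to a family of near-identical genes, so their signals cannot be fully separated.

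The promoters of Ifi205 and of Rsad2, the viperin gene, chosen after its values were seen (-1.34 and -1.59), are shown because they are the first fallen members by p that hold an interferon-stimulated element (GAAA, any 2 bases, then GAAA), in capitals on either strand (GRCm38.p6, RefSeq; Ifi205 at chr1:174031706-174032005, - strand, and Rsad2 at chr12:26456403-26456702, - strand).
Ifi205: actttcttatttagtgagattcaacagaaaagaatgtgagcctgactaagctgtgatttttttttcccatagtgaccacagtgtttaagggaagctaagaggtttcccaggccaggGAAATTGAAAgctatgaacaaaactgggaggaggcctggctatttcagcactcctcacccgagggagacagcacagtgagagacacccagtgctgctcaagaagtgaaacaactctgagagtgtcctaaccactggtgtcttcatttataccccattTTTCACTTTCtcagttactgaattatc
Rsad2: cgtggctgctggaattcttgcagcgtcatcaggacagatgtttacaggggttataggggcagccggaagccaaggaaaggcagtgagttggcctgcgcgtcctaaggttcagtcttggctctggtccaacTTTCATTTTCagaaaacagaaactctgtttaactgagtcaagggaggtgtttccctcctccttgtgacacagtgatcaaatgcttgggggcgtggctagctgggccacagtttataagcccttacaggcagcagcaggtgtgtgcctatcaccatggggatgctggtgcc
The element was found for 25 of 53 interferon genes with a window (47.2%) and for 3.87% of all genes. Of the 9 that fell it was found for 3, and of the 3 that rose for 2.

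Retinoic acid genes, which make, carry or answer the vitamin A signal that patterns the embryo, had 8 of 23 members that rose and none that fell. Their median was 0.44, with 0.45 on the first array but 0.17 on the second. Aldh1a1, which oxidises retinaldehyde, was 3.15 and 3.91 in the double mutant, 3.92 and 4.28 in the PARP-1 null and 2.95 and 1.87 in the Wrn mutant. Rbp4, the plasma carrier of retinol, was 3.85 and 3.09 in the double mutant, 2.02 and 2.07 in the PARP-1 null and 0.78 and -0.34 in the Wrn mutant. Rdh11, a retinaldehyde reductase gene, was 1.01 and 1.17, 0.69 and 0.74, and 0.45 and 0.37 in that order. Crabp1, a cellular binding protein gene, was 1.22 and 1.19 in the double mutant, 0.95 and 0.99 in the PARP-1 null and -0.33 and 0.10 in the Wrn mutant. Rbp4, Rdh11 and Crabp1 lay highest in the double mutant without overlap, whereas Aldh1a1 was not above the PARP-1 null.

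Neural crest and glial genes had 5 of 25 members that rose and none that fell. Thus 20% passed, near the 18.5% of all named genes, of which 10.1% were higher. Their median of 0.53 rested on the first array, being 0.70 there and 0 on the second. Sox10, the transcription factor that keeps crest cells and glia, was 3.88 and 3.31 in the double mutant, 2.30 and 2.18 in the PARP-1 null and 0.42 and -0.23 in the Wrn mutant. Foxd3, another crest factor, was 2.05 and 1.56 in the double mutant, 1.08 and 1.18 in the PARP-1 null and 0.66 and 0.22 in the Wrn mutant, and Pou3f1 was 1.15 and 0.66, 0.40 and 0.63, and 0.26 and 0.53. Of the defining glial genes, named after their values were seen, Erbb3 was -0.19 and -0.25 and S100b -1.22 and -0.70 in the double mutant, and neither passed. The share of crest-derived cells in each pool was not tested. Among 92 patterning factors 10 rose and 5 fell, with Lhx9, a gonad and limb factor, at 1.47 and 1.24 in the double mutant, 0.48 and 0.36 in the PARP-1 null and -0.38 and -0.33 in the Wrn mutant. Dlx2, of the face and forebrain, was 3.04 and 2.70 in the double mutant, 1.54 and 1.70 in the PARP-1 null and 1.03 and 0.072 in the Wrn mutant. Zic4, a midline and somite factor, was -3.03 and -2.80, -2.51 and -1.91, and -0.41 and -0.78. Mesothelial and visceral markers had a median of 0.69 with 4 of 22 higher and none lower, Wt1 at 2.02 and 2.68 among them. At 18.2% their share that passed was near that of all named genes. Hox genes, which mark position along the body and limb, had 6 of 35 that fell and none that rose, with a median of -0.42. Thus 17.1% passed, near the 18.5% of all named genes, of which 8.38% were lower. Hoxa9 was -1.30 and -1.25 in the double mutant, -1.02 and -0.65 in the PARP-1 null and -0.67 and -0.19 in the Wrn mutant, whereas Hoxd13 was less low in the double mutant, at -1.17 and -0.84, than in the PARP-1 null, at -1.65 and -1.83, or the Wrn mutant, at -1.52 and -1.76.

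Genes of glycolysis and the response to low oxygen had 8 of 38 members that rose, 2 that fell and a median of 0.59. Slc16a3, the exporter of lactate, was 2.06 and 2.33 in the double mutant, 0.72 and 1.45 in the PARP-1 null and 0.56 and 0.047 in the Wrn mutant (adjusted p = 0.0217). Ldhb, a lactate dehydrogenase gene, was 1.28 and 1.17, 0.49 and 0.84, and 0.42 and 0.32, and Pfkfb4 was 1.14 and 1.04, 0.85 and 0.52, and 0.21 and 0.31. In these 3 the double mutant lay above both single mutants. Hk1, the ubiquitous hexokinase, fell to -1.90 and -1.71, and the muscle mutase gene Pgam2 to -2.47 and -1.57. The promoter of Slc16a3 (chr11:120948817-120949116, + strand, GRCm38.p6, RefSeq) is shown because it holds 2 copies of ACGTG, the core of the hypoxia response element, in capitals near the start.
Slc16a3: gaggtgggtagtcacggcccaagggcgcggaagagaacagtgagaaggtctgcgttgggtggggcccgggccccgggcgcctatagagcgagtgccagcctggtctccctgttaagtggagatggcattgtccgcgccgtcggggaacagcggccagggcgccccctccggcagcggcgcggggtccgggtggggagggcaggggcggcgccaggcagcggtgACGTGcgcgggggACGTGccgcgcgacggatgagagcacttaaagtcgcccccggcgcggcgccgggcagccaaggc
ACGTG on either strand was found for 23 of 34 genes of the list with a window (67.6%) and 25.7% of all, and for 4 of the 8 that rose.

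**Figure D4:**
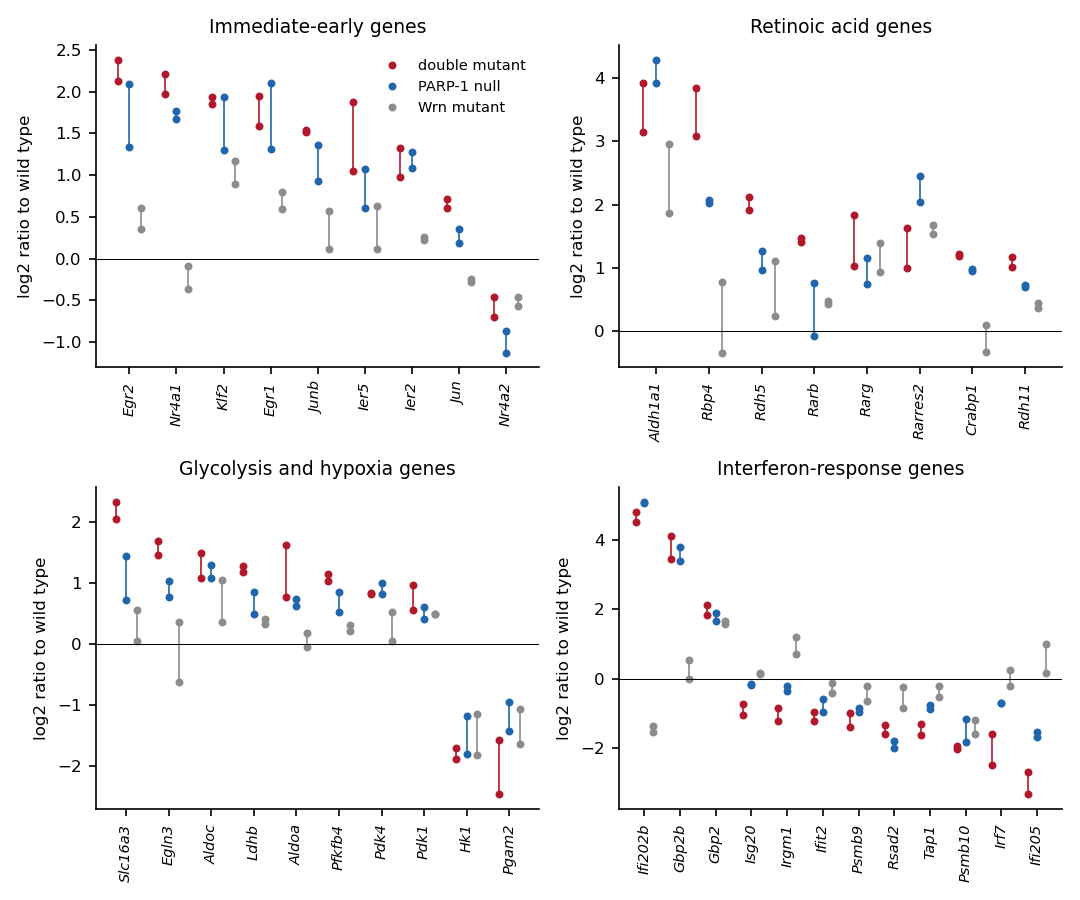
Log2 ratio to wild type (y axis) of the members that passed in the double mutant, in 4 gene lists; each point is an array and a line joins the 2 arrays of a genotype. Nr4a1 and Jun lie below 0 in the Wrn mutant only, Rbp4 falls in 3 separate levels, and the interferon genes split into Ifi202b, Gbp2b and Gbp2 above 0 and 9 genes below it.

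Mitochondrial ribosomal proteins had 16 of 73 members that rose and 1 that fell, so 23.3% passed, and their median of 0.27 was 0.16 on the first and 0.39 on the second array. Mrpl28 was 0.90 and 0.84 in the double mutant, 0.49 and 0.53 in the PARP-1 null and -0.26 and 0.004 in the Wrn mutant, and Mrpl17 was 0.73 and 0.76, 0.45 and 0.59, and 0.14 and 0.33. Mrpl9 fell to -2.63 and -1.80. Of the 16 that rose 14 lay above all 4 single-mutant arrays, as did 60.5% of all genes that rose. Oxidative phosphorylation genes had a median of 0.58 over 71 members, with 0.30 on the first and 0.86 on the second array. Of these 9 rose (12.7%, against 10.1% of all genes) and none fell. With scale normalization between arrays 0 passed higher, and with spots at 0 or at the limit left out 25 did. Cytosolic ribosomal proteins had 3 of 65 that rose with a median of 0.53, but the median was 0.043 on the first and 1.22 on the second array. In cholesterol and fatty acid synthesis 3 of 32 genes rose and 2 fell: the sterol genes Hsd17b7 (0.97 and 0.84) and Tm7sf2 (1.62 and 1.58) and the elongase gene Elovl5 (0.88 and 0.97) rose, while Cyp51 (-2.18 and -1.48) and Srebf2 (-0.45 and -0.35), the regulator of the pathway, fell. Among 21 genes of NAD metabolism and sirtuins, Nnmt, which methylates nicotinamide, the by-product of PARP-1, fell to -2.12 and -2.18 in the double mutant, with -1.44 and -1.41 in the PARP-1 null and -0.31 and 0.057 in the Wrn mutant (adjusted p = 0.0104). Nmnat1, the nuclear enzyme that makes NAD, rose to 1.50 and 0.91, and Sirt4 to 0.91 and 0.57. Of 44 antioxidant genes 1 rose and 3 fell, with catalase (Cat) at -1.70 and -0.99 and extracellular superoxide dismutase (Sod3) at -1.60 and -1.39. Of 34 unfolded protein and heat shock genes 5 rose and 1 fell, and of 30 proteasome genes 3 rose and Psmc5 fell, to -2.88 and -2.04.

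Some genes usually found in blood cells were among the highest. Of 38 granulocyte and mast cell genes 7 rose and 2 fell, so 23.7% passed, against 18.5% of all named genes. Rnase2a, an eosinophil ribonuclease gene, was 4.92 and 3.91 in the double mutant, 3.06 and 2.52 in the PARP-1 null and 0 on both Wrn mutant arrays. Chil3, a chitinase-like gene of macrophages and neutrophils, was 2.99 and 2.62, 0.78 and 1.98, and -0.13 and -0.55. Genes that define these cells were named after their values were seen. S100a9, the other calprotectin subunit, and Csf3r, the granulocyte receptor, were 0 on all 6 arrays, and 10 of the 38 were 0 on both double-mutant arrays. Whether these zeros were measured is not stated, so nothing is read from them. Elane was 0.48 and 0.27 in the double mutant and did not pass. The granulocyte enzyme gene Mpo rose to 2.33 and 2.31 in the double mutant, beside 0.49 and 1.30 in the PARP-1 null and 1.01 and 2.34 in the Wrn mutant. Of 30 macrophage genes 2 rose and none fell, with a median of -0.17. Marco, a scavenger receptor, was 2.47 and 2.28 in the double mutant, -0.39 and 0.60 in the PARP-1 null and -0.72 and -0.28 in the Wrn mutant, and Fcgr2b was 2.61 and 2.14, 1.89 and 1.86, and 1.48 and 0.55. The defining genes did not pass: Ptprc, which encodes CD45, was -1.03 and -0.32 in the double mutant, Adgre1 (F4/80) 0.39 and 0.47, Cd14 0.83 and 1.29, and Lyz2 -3.39 and -0.57. Of 29 platelet and erythroid genes 3 rose and 2 fell, and the platelet gene Pf4 was 1.94 and 3.13 without passing (adjusted p = 0.0701). Of 35 lymphocyte genes 2 rose and 5 fell. The part of blood cells in these values was not tested.

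Fat-cell genes had 6 of 31 members that fell and 2 that rose. Pparg, the master regulator of adipocytes, was -1.35 and -1.59 in the double mutant, -1.43 and -1.39 in the PARP-1 null and -0.43 and -0.55 in the Wrn mutant. Lpin1, a phosphatidate phosphatase gene, was -1.08 and -1.05 in the double mutant, -0.58 and -0.66 in the PARP-1 null and 0.18 and 0.14 in the Wrn mutant, in 3 separate levels (adjusted p = 0.0104). Retn, the resistin gene, fell to -2.14 and -1.89. The mature markers Adipoq (2.17 and 1.62), Fabp4 (-0.76 and 0.19) and Plin1 (-0.73 and -1.39) did not pass. Fibroblast markers had 3 of 20 members that rose and 1 that fell, with a median of 0.61; Vim, the vimentin gene, was 2.06 and 2.96 and Ddr2, a collagen receptor gene, fell to -1.03 and -0.73. Other cell-type lists passed at or below the background: 1 of 34 endothelial genes, 7 of 58 muscle genes, 3 of 32 cartilage and bone genes, 5 of 45 neuronal genes, 10 of 58 epithelial genes and 5 of 28 liver genes. Of 49 germline genes 3 rose and 7 fell, with the stem-cell factor genes Pou5f1 (2.98 and 2.34) and Zfp42 (2.09 and 1.71) up and the meiotic cohesin Rec8 (-1.09 and -1.22) and the protamine Prm1 (-2.13 and -2.38) down. Pou5f1 has near-identical pseudogenes, which may share its signal.

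In the matrix, 1 of 34 collagen genes rose and 2 fell, 4 of 59 proteoglycan and glycoprotein genes rose and 5 fell, and 3 of 50 protease and inhibitor genes rose and 7 fell. Lox, the collagen cross-linking enzyme, was 1.62 and 2.50 in the double mutant, 1.27 and 1.53 in the PARP-1 null and 0.61 and 1.09 in the Wrn mutant. Timp2, an inhibitor of metalloproteases, was -1.97 and -2.63, -1.43 and -1.18, and -0.89 and -1.48. Itgax, the CD11c integrin gene, was 2.94 and 2.96 in the double mutant, 0.67 and 0.46 in the PARP-1 null and 1.97 and 1.28 in the Wrn mutant, and Cd44, the hyaluronan receptor, fell to -1.05 and -1.18. Of 56 genes of TGF-beta and BMP signalling 4 rose and 6 fell: the ligands Tgfb2 (1.88 and 1.48) and Tgfb3 (1.70 and 2.04) and the receptor Bmpr1b (1.80 and 1.45) rose, and the receptor Acvr1 (-2.63 and -1.69) and the corepressor Ski (-0.90 and -0.67, over 3 spots) fell. Among 57 growth factor and receptor genes 6 rose and 3 fell. Egfr, the receptor of epidermal growth factor, was 1.91 and 1.90 in the double mutant, 1.06 and 1.52 in the PARP-1 null and 0.94 and 1.02 in the Wrn mutant. Igfbp3, which binds insulin-like growth factors, was -1.55 and -1.11, -0.48 and -0.71, and 0.92 and 0.69, below 0 only without PARP-1. Fgfr1 fell to -1.92 and -2.28. In Wnt signalling 6 of 60 genes rose and 4 fell, with Porcn, the acyltransferase of Wnt ligands, at 1.63 and 1.67, and in Notch and Hedgehog signalling 3 of 41 rose and 3 fell. Of 58 ephrin, semaphorin and netrin genes 3 rose and 9 fell, and of 75 ion channel genes 5 rose and 11 fell, with Kcnk2, a potassium channel gene, at -1.63 and -1.51 in the double mutant, -1.52 and -1.49 in the PARP-1 null and -0.70 and -0.85 in the Wrn mutant. The remaining lists gave 3 of 34 serpins higher and 4 lower, 3 of 14 S100 genes higher and 1 lower, 5 of 45 complement and coagulation genes higher and 5 lower, 3 of 37 integrins and cadherins higher and 2 lower, and 2 of 34 imprinted genes higher and 3 lower.

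Against the PARP-1 null 0 of 16504 genes passed (0%), with a lowest adjusted p of 0.289 and 1181 at an unadjusted p under 0.05. Against the Wrn mutant 0 passed (0%), with a lowest adjusted p of 0.0557 and 2500 at an unadjusted p under 0.05. A gap of at least 2-fold between both arrays of each genotype was seen above the PARP-1 null in 61 genes (0.37%) and below it in 48 (0.291%), and above the Wrn mutant in 225 (1.36%) and below it in 171 (1.04%). The genes named next had the largest gaps and did not pass against either single mutant. Paip1, a translation factor that binds the poly(A)-binding protein, was 1.90 and 2.35 in the double mutant, with -0.37 and -0.51 in the PARP-1 null and -0.049 and -0.046 in the Wrn mutant, so it was high in the double mutant alone. Itgax and Marco above were in the same set. Mybpc1, a muscle myosin-binding protein gene, was 0 on both double-mutant arrays, with 2.63 and 3.29 in the PARP-1 null and 0 on both Wrn mutant arrays. Its gap rests on these zeros, and whether they were measured is not stated. Tigar, a sugar phosphatase gene induced by p53, was 0.81 and 0.55 in the double mutant, 2.62 and 2.38 in the PARP-1 null and -0.30 and 0.20 in the Wrn mutant. Iigp1, an interferon-inducible GTPase gene, was -1.10 and -1.95 in the double mutant, 0.80 and 1.24 in the PARP-1 null and 0.63 and 3.11 in the Wrn mutant. Samt2b was -1.21 and -1.15 in the double mutant, -3.56 and -3.33 in the PARP-1 null and -0.37 and 0.42 in the Wrn mutant. The contrasts share their double-mutant arrays, and the single mutants share wild type, so their agreement was not counted.

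Of the genes that rose against wild type 68.5% had both double-mutant arrays above both PARP-1 null arrays and 83.3% above both Wrn mutant arrays, and of those that fell 52% and 69.6% lay below. These shares describe genes selected for their size in the double mutant, so a lead of the double mutant is built into them. The counts over whole lists take in every measured member, but members and lists were chosen with earlier results of these data known. They are a description and no independent support. Among the 12 lists drawn, mitosis, replication, RecQ and break-repair genes lay most often above the PARP-1 null. Interferon genes (28 of 65) lay most often below it. Of the PARP family, which is not drawn, 9 of 16 lay below it.

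**Figure D5:**
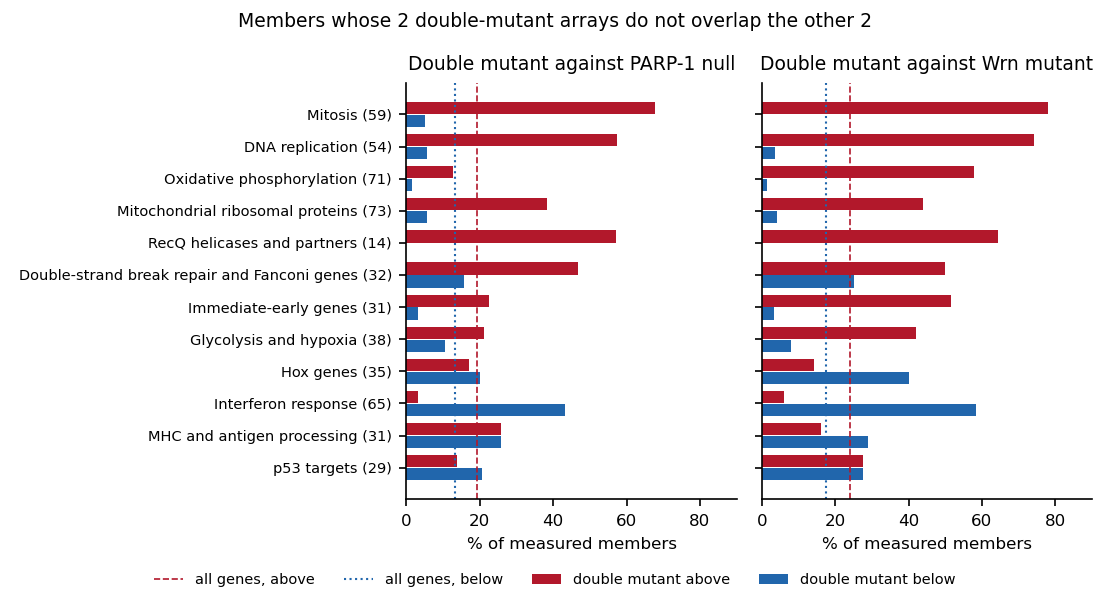
Share of the measured members of 12 gene lists (number in brackets) whose 2 double-mutant arrays both lay above (red) or both below (blue) the 2 arrays of the PARP-1 null (left) and of the Wrn mutant (right); the lines give the shares over all genes, 19.2% and 13.2% on the left and 24% and 17.6% on the right. Mitosis genes reach 67.8% and 78.0% above, and interferon genes 43.1% and 58.5% below.

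The 2 pools of the double mutant differed in sex-linked genes, chosen here in part after their values were seen. Xist, the RNA of the inactive X, was 2.46 and 0.057 in the double mutant, 1.48 and 0.35 in the PARP-1 null and 0.65 and 1.01 in the Wrn mutant. The Y-linked gene Eif2s3y was 0.12 and 2.00 in the double mutant, -5.33 and -3.37 in the PARP-1 null and 0.84 and -4.48 in the Wrn mutant. Kdm5d was -1.49 and 1.33 in the double mutant, -0.69 and -2.12 in the PARP-1 null and 1.22 and -2.60 in the Wrn mutant, and Uty was -1.90 and 0.11, 0 and -1.48, and 0.60 and -5.66. In the double mutant the first array was thus higher in Xist and lower in all 3 Y-linked genes. The gap of Eif2s3y above the PARP-1 null was the largest of all genes in that direction. The part of embryo sex in other differences was not tested. Of 13 sex-linked genes 1 passed, Kdm5c, which fell to -0.50 and -0.68. The largest disagreements between the 2 double-mutant arrays were in genes far from 0 on 1 array and at or near 0 on the other, such as Slc13a3 (5.61 and 0), Papolb (-5.94 and 0), Gars (-5.16 and 0) and Vmn1r208 (0 and -5.29), and in Pcdha11 (1.77 and -4.52). None of these passed.

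Around the 2 altered genes, where sequence of the strain in which they were targeted may remain, the 50 measured genes on each side of Parp1 in RefSeq order held 12 that rose and 10 that fell of 100, and those around Wrn 9 and 12 of 100. At 22% and 21% these shares lie near the background of 18.5%. Within 100 genes of Parp1, Apoa2, an apolipoprotein gene, was -2.21 and -2.59 in the double mutant, -3.36 and -2.89 in the PARP-1 null and 0.47 and 0.76 in the Wrn mutant, and Cadm3, a cell adhesion gene, was 2.15 and 2.61, 2.24 and 2.62, and 0.89 and 1.14. Ifi202b and Ifi205 lie in the same stretch. Within 100 genes of Wrn, Defb1, a defensin gene, was 2.79 and 2.91 in the double mutant, 2.58 and 2.69 in the PARP-1 null and 0 on both Wrn mutant arrays, and Agpat5, an acyltransferase gene, was -0.99 and -1.10, -1.22 and -1.51, and -0.011 and 0.057. Agpat5 thus lay away from 0 in the lines without PARP-1 and near 0 in the Wrn mutant. Whether the zeros of Defb1 were measured is not stated. Other genes near Wrn that passed lay away from 0 in the Wrn mutant too. Among them were Defb6, with a mean of -2.57 there and -3.06 in the double mutant, and Dctd, with -1.49 and -1.47. Strain differences at these loci were not tested.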

How the data were processed

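Expression was compared on 6 two-colour Agilent 60-mer arrays, 2 per mutant genotype, with wild-type cRNA in Cy5 and mutant cRNA in Cy3 on each, per the labels. The authors deposited 1 log10 ratio per spot; base 10 was taken from their limit at a size of 2, and how they were processed before deposit is not stated. The 22393 log10 values were multiplied by 3.32 to give log2, and spots were averaged per annotated symbol, which gave 16504 genes from 18218 spots. The 4175 spots with no or several symbols stayed as single features, for 20679 in all. Among them 261 lay below -1 (log10) on all 6 arrays.

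Features were tested with limma 3.58.1 (R 4.3.3; lmFit and eBayes, 1 fit, a coefficient per genotype, 3 residual and 0.66 prior degrees of freedom). On simulated data the comparison with wild type recovered 14.7%, 53% and 92.4% of log2 changes of 1, 2 and 4, over 20679 features. The simulated noise was normal, and only 68, 66 and 66 genes were changed at these sizes. In the real data 18.5% of named genes passed, so these figures do not give the power of the real comparison. Members and the 59 lists were chosen with earlier results of these data known, so no list was tested. Named genes were 15 each way by the smaller of the 2 array values, up to 4 by p per list and up to 2 against its majority, the 10 largest gaps each way to each single mutant, the largest disagreements between arrays, and genes near Parp1 and Wrn. Promoters came from RefSeq tables on GRCm38.p6. Python 3.11.15 and matplotlib 3.10.9 drew the plots. Alternatives changed scaling, centring, zeros, spot filters, the moderation, a block and the arrays included.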

Additional observations from a re-analysis of the deposited data

How the results depend on the processing

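The count of genes that passed in the double mutant against wild type (3052, of which 1669 higher and 1383 lower) stayed within 1.5 times with the strongest spot per gene (3198), robust moderation (2433), centring on the median of values other than 0 (3958, with 1989 lower) and, as an alternative chosen after seeing the data, with named genes only (3241). It was 4350 with exact zeros as missing (2185 lower) and 4772 with spots at 0 or at the limit left out (2412 higher, 2360 lower), where fewer genes were tested. Scale normalization between arrays gave 1013 (596 higher, 417 lower). The array number as a replicate block gave 1215 (727 higher, 488 lower). Differences between the arrays of a genotype correlated across genes at r = 0.17 for the double mutant and the PARP-1 null. In the other pairs r was -0.17 and -0.11. Each genotype gives a single such difference, so whether the numbers pair the arrays cannot be told. The 2 double-mutant arrays fitted alone gave 0, with 3914 at an unadjusted p under 0.05. The rule of at least 2-fold on every array gave 1773 (777 higher, 996 lower). Leaving out each array in turn gave 32 to 1308 genes, 9 to 770 higher and 23 to 538 lower; the cause of these changes was not tested beyond the fewer arrays in each fit.

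Against the PARP-1 null the count was 0 in the settings above, except 109 by the 2-fold rule, and 0 to 286 with an array left out, the highest without the first PARP-1 null array. Against the Wrn mutant it was 3 under scale normalization, 1 under centring, 39 with zeros as missing, 77 with spots left out, 2 with robust moderation, 1 with named genes only, 396 by the 2-fold rule and 0 to 387 with an array left out, the highest without the first Wrn mutant array; the cause was not tested. Of the 288 named genes that passed, none changed sign in any setting, but most settings could not turn the sign of such a gene. In all 8 settings that kept every array 97 of them passed. Across the settings tried, 5 of 59 list medians changed sign: antioxidant, cholesterol, integrin, proteasome and heat shock genes. Lists with a median of exactly 0 in the main fit could not count as changed, though some moved. The lymphocyte median went from 0 to -0.57 with spots at 0 or at the limit left out. The median of the patterning factors went from 0 to 0.32 with exact zeros as missing.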
